A study of Mus musculus with 121 samples.

Results

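Nr3c1, Fkbp5, Tsc22d3, Zbtb16, Hif3a, Sgk1, Cdkn1a, Pdk4, Plin4 and Sult1a1 are the glucocorticoid receptor and 9 genes known to respond to it. They were taken by symbol, as the entries of the read count table whose symbol equals one of these names, and all 10 were found, once each, among 24412 entries. Each of the 10 passed the filter on low counts in every fit.

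Corticosterone, the main glucocorticoid of mice, is released by the adrenal gland in a daily rhythm and during stress, and it crosses into the brain. There it binds the glucocorticoid receptor, which leaves its chaperones, enters the nucleus and binds DNA at short palindromes. Among its targets is Fkbp5, whose product joins the Hsp90 complex of the receptor and lowers its affinity for the hormone, so that Fkbp5 is often read as a gauge of recent receptor activity in brain.

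Bulk RNA from prefrontal cortex (PFC), striatum (STR) and substantia nigra (SN) of male mice with a conditional Gdnf allele (cKU), which raises expression from the native gene once Cre has acted, was sequenced in 121 libraries. The background strain was a mix of 129Ola, ICR and C57bl6. The question of the study was what a rise of endogenous GDNF does in these regions. WT mice (wt/wt), HET mice (wt/cKU) and HOM mice (cKU/cKU) were compared in 2 models.

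In the Nestin-Cre model, Cre is driven by the nestin promoter in neural precursors, so that neurons and most glia of the whole central nervous system are recombined from mid-gestation. Per the study's methods every genotype, WT included, carried Nestin-Cre, and the labels give an age of 2 months and no treatment, while the study's text has 2 to 3 months for STR and SN. There were 8 WT, 6 HET and 4 HOM libraries of PFC, and 6 WT, 7 HET and 6 HOM libraries each of STR and SN. In the AAV-Cre model, a virus coding for Cre was injected into both striata at 3 to 5 months under isoflurane, with carprofen, and the mice were killed at 5 to 7 months. The WT littermates were injected too, and Cre reaches the cells that the virus infects, around the injection. This model had 7 WT, 7 HET and 8 HOM libraries each of PFC and SN, and 7 of each genotype of STR. All mice were killed by carbon dioxide and cervical dislocation. Neither the labels nor the methods give the time of day at death, and the labels name no batch. Libraries held 9869584 to 26750905 counts (median 17885830). Levels are given as normalised read counts, cpm (counts scaled to the library size, here with TMM factors over all 121 libraries).

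The sums of neuron markers were highest in the labelled regions. The sum of 6 cortical neuron markers had a median of 2156 cpm in Nestin-Cre PFC and 1998 cpm in AAV-Cre PFC, and its highest value in any STR or SN library was 544 cpm. For 6 striatal markers the medians were 7083 cpm in Nestin-Cre STR and 7261 cpm in AAV-Cre STR, and for 6 markers of nigral dopamine neurons 2564 cpm in Nestin-Cre SN and 2877 cpm in AAV-Cre SN. Striatal markers outside STR reached 1473 cpm in A_PFC_WT_3649 (AAV-Cre PFC median 757) and 1242 cpm in N_SN_HET_4566 (Nestin-Cre SN median 130), and nigral markers outside SN reached 54.5 cpm. The mouse numbered as in N_PFC_WT_4575 carries the WT label there but the HOM label in N_STR_HOM_4575 and N_SN_HOM_4575, so that it was left out of all relations between regions.

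Gdnf, the targeted gene, was low outside the striatum. In Nestin-Cre STR it read 3.95 to 7.75 cpm in WT (median 6.24), 4.01 to 9.41 in HET (5.63) and 5.74 to 9.9 in HOM (6.93), and the genotypes overlapped. AAV-Cre STR had 5.49 to 7.51 cpm in WT (6.82), 6.43 to 9.54 in HET (7.54) and 7.71 to 10.1 in HOM (8.66), so that each HOM library lay above each WT library. Nestin-Cre PFC had 0.215 to 0.948 cpm in WT (0.416), 0.134 to 0.925 in HET (0.372) and 0.0936, 0.132, 0.146 and 0.649 in HOM. In AAV-Cre PFC these were 0.308 to 1.21 cpm in WT (1.03), 0.32 to 1.7 in HET (1.25) and 0.368 to 1.59 in HOM (0.753). The PFC genotypes overlapped. Nestin-Cre SN had 0.275 to 0.5 cpm in WT (0.415), 0.278 to 1.57 in HET (0.486) and 0.35 to 0.852 in HOM (0.655). AAV-Cre SN had 0.0971 to 1.02 cpm in WT (0.219), 0.233 to 0.852 in HET (0.384) and 0.17 to 0.832 in HOM (0.452), again with overlap. By qPCR and ELISA, the study reported striatal Gdnf mRNA and GDNF protein rising with allele dose in Nestin-Cre mice. The mRNA of the recombined allele has a short 3'UTR in place of the native one, and its effect on these counts was not tested. Overlapping counts therefore do not show that Gdnf was not raised.

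A few libraries and mice stood apart. The summed level of 8 choroid plexus markers, of which none was at 0 in every library, was above 1000 cpm in 9 libraries. In AAV-Cre STR it was 8311 cpm in A_STR_WT_3585, 5690 in A_STR_WT_3588, 6980 in A_STR_HET_3610, 5238 in A_STR_HET_3750, 5019 in A_STR_HOM_3607 and 6639 in A_STR_HOM_3690. A_SN_HET_3676 had 20279 cpm, A_PFC_HET_3676 had 1294 and N_STR_HET_4566 had 18991. The other 112 libraries had 6.19 to 312 cpm. Ttr was the most abundant of these markers by median in STR of both models, at 43.7 cpm in the Nestin-Cre model and 150 cpm in the AAV-Cre model.

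The AAV-Cre HET mouse of A_SN_HET_3676 also had the highest sum of the 10 glucocorticoid-responsive genes in each AAV-Cre region, with 522 cpm in PFC, 609 in STR and 665 in SN, beside medians of 401, 408 and 360 cpm. In the Nestin-Cre model the highest sums were those of N_PFC_WT_4394 (506 cpm, median 372), N_STR_WT_4394 (497, median 362) and N_SN_HOM_4393 (634, median 374). These mice carry low numbers. The 6 Nestin-Cre mice with the lowest numbers comprise 5 WT mice and the HOM mouse of N_SN_HOM_4393, and every HET mouse has a higher number than these 6. The mouse next in number is WT and also lies below every HET mouse, but it was not counted as low-numbered. The labels do not say whether the number follows birth or collection, so that genotype and number cannot be told apart in full. Several results of the 10 genes are given with and without the 6 low-numbered mice, a choice made after the values were seen. For other genes, only shares of all genes that passed are also given without these mice. Values without them describe how far a result depends on these mice and on how many mice are left, and support nothing by themselves.

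Within Nestin-Cre WT the low-numbered mice, singled out after high values were seen, are described without a test. In PFC, Hif3a read 7.82 to 15.1 cpm in 5 low-numbered mice and 2.36 to 4.62 cpm in 3 others, Sgk1 59.7 to 116 beside 54.2 to 57.1, and Tsc22d3 73.1 to 97.2 beside 49.2 to 50.4, all without overlap. Cdkn1a there ran the other way, at 16.2 to 25.7 cpm (median 21.6) beside 25.5 to 39.9 (27.9), with overlap. The 3 others in PFC include N_PFC_WT_4575, whose mouse has conflicting labels, as do the PFC fold changes without the low-numbered mice below. That library had the lowest Sgk1 and Tsc22d3 and the highest Cdkn1a of Nestin-Cre WT PFC. In STR, with 3 mice on each side, Fkbp5 (54.3 to 62.4 beside 36.8 to 52.1 cpm), Hif3a (5.76 to 7.11 beside 1.92 to 2.92), Plin4 (4.21 to 11.7 beside 0.748 to 1.34), Sgk1 (119 to 174 beside 94.6 to 110) and Tsc22d3 (61.6 to 93.9 beside 34.4 to 46.3) were higher without overlap. Nr3c1, the receptor, was lower in the low-numbered mice there, at 104 to 115 beside 116 to 140 cpm. In SN the same 5 genes and Zbtb16 (9.26 to 20.9 beside 4.94 to 7.67 cpm) were higher without overlap. High values were not confined to low numbers, since N_STR_HET_4628 read 10.9 cpm of Hif3a, 151 of Sgk1 and 65.9 of Tsc22d3, each the highest of its group.

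**Figure D1:**
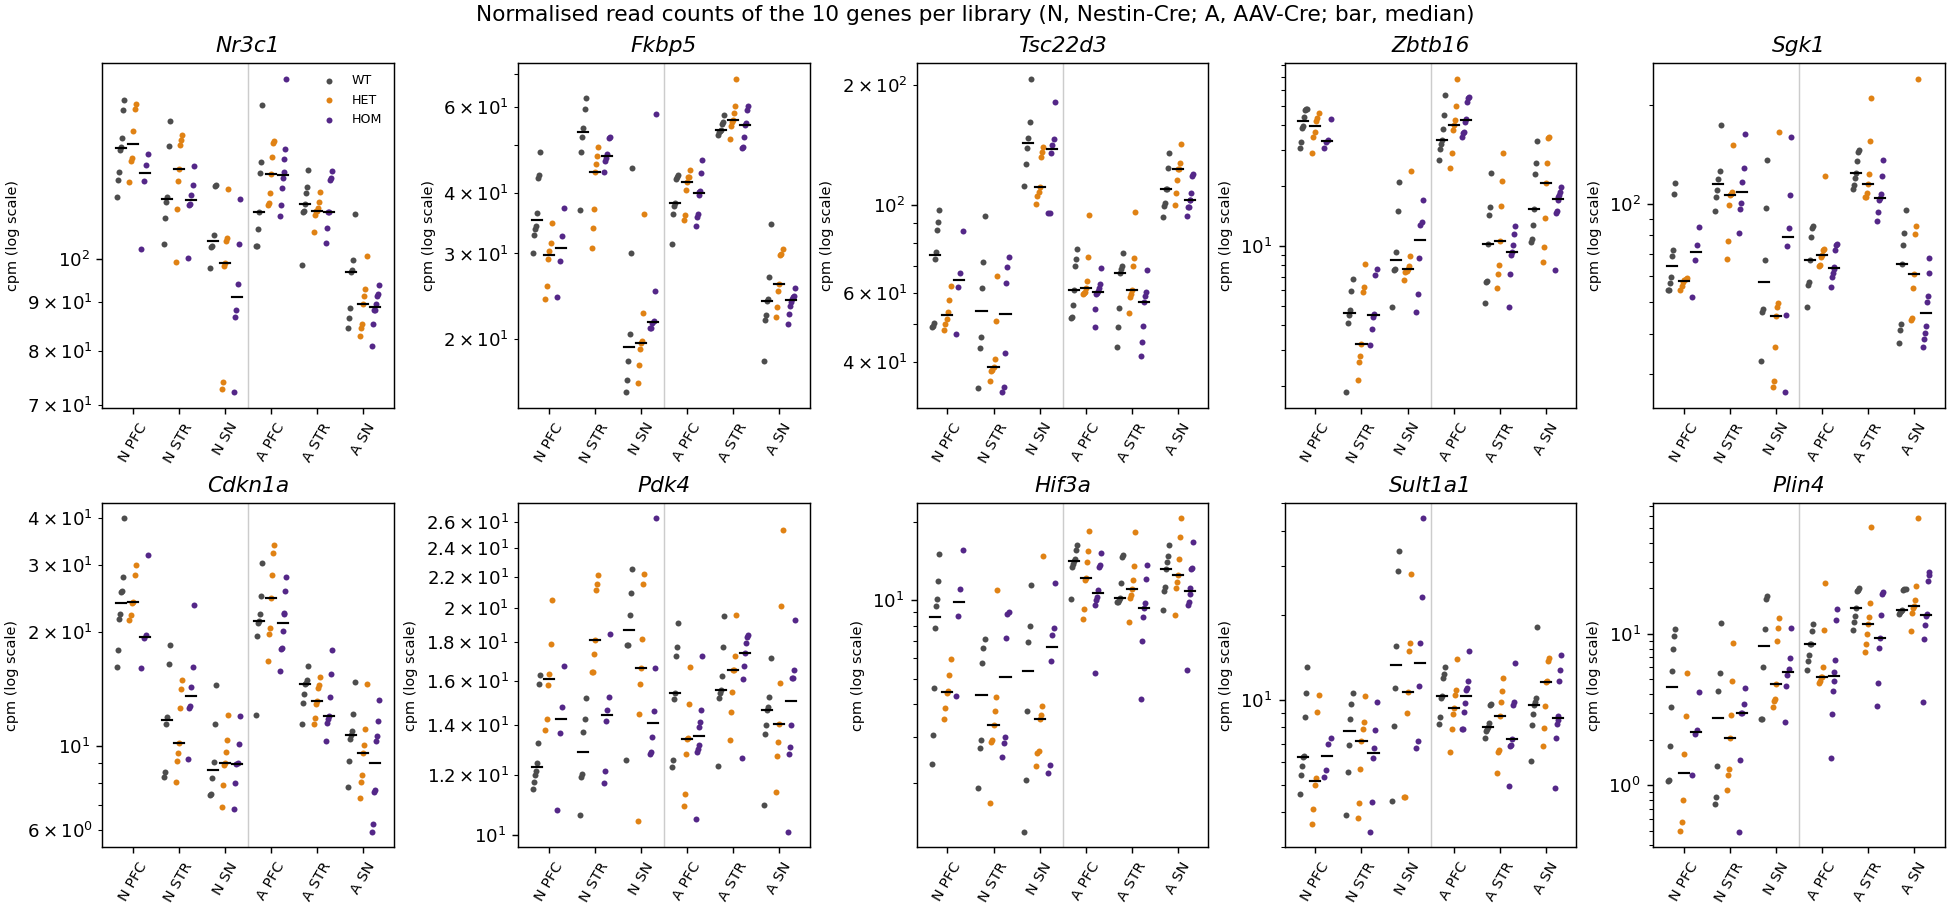
Normalised read counts (cpm, log axis) of the 10 genes in each of the 121 libraries, by model (N, Nestin-Cre; A, AAV-Cre), region and genotype, with bars at the medians. Zbtb16 in WT PFC (30.6 to 48.2 cpm in Nestin-Cre mice) lies above WT STR (1.86 to 6.79 cpm), and the mouse of A_SN_HET_3676 is the highest AAV-Cre point of Plin4 in all regions, with 58.1 cpm in SN.

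Corrected for length, Tsc22d3, Nr3c1 and Sgk1 held the first 3 places in WT mice of every region and model. By median cpm per kilobase, Tsc22d3 led in PFC with 28.2 for Nestin-Cre and 23 for AAV-Cre libraries, before Nr3c1 (20.7 and 17.7) and Sgk1 (15.5 and 16.2). In STR, Sgk1 led per kilobase with 27.6 and 29.8, before Tsc22d3 (20.4 and 25.4) and Nr3c1 (18.3 and 18.1). In SN, Tsc22d3 stood far above the others per kilobase, at 54.1 for Nestin-Cre and 41.3 for AAV-Cre libraries, and Nr3c1 (16.5 and 15.3) and Sgk1 (13.8 and 15.7) were close to each other within their spread. Fkbp5 was number 4 per kilobase in STR (13.7 and 13.8) and number 5 in PFC (9.07 and 9.81), next to Cdkn1a (11.7 and 10.5). At the low end per kilobase were Hif3a, with 0.618 to 2.02 over the 6 sets, and Plin4, with 0.482 to 2.6.

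The comparisons between regions in WT mice ask how the normal levels are laid out. In 60 tests of the 10 genes (edgeR, adjusted p under 0.1 over all genes), 17 were upward and 22 downward, 39 in all, and with mouse as a block in a paired fit 43 passed. The share of all genes passing in the paired fit is not given, so that the change from 39 to 43 says nothing particular about the 10 genes. The block added calls in Nestin-Cre mice for Hif3a (-0.47, adjusted p 0.0262) and Tsc22d3 (-0.28, adjusted p 0.0395) in STR against PFC and for Plin4 in SN against STR (1.68, adjusted p 2.06e-05) and PFC (1.47, adjusted p 7.02e-05), and in AAV-Cre mice for Hif3a in SN against STR (0.18, adjusted p 0.0901), and it ended that of Sult1a1 in AAV-Cre SN against STR. In AAV-Cre mice 7 of the 10 genes differed between STR and PFC (65.6% of all genes did), 7 between SN and STR (75.6%) and 6 between SN and PFC (74.1%). In Nestin-Cre mice 5 differed between STR and PFC (68.1%), 7 between SN and STR (76.2%) and 7 between SN and PFC (78.8%). These counts lie near the shares of all genes. In bulk tissue, fewer cells of a type and less RNA per cell cannot be told apart.

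Nr3c1 (Entrez 14815, mm10 chr18:39410545-39487245, minus strand) codes for the receptor. Its WT levels in AAV-Cre mice were 103 to 145 cpm in PFC (median 112), 98.6 to 124 in STR (114) and 84.5 to 112 in SN (97), and in Nestin-Cre mice 116 to 147 (131), 104 to 140 (116) and 97.8 to 120 (105). The ranges of all 3 regions overlapped in both models, with SN at the lower end. SN fell by 0.27 ± 0.08 (log2 ± SE here and below) against PFC in AAV-Cre mice (adjusted p 0.00298, 7 of 7 SN libraries below the PFC median, and so for such counts below, which take libraries of the group named first beyond the median of the other group and not pairs of a mouse) and fell by 0.29 ± 0.07 in Nestin-Cre mice (adjusted p 0.00106, 6 of 6). Against STR, SN fell by 0.23 ± 0.08 in AAV-Cre mice (adjusted p 0.0104, 7 of 7). The smaller Nestin-Cre differences, SN against STR at -0.15 ± 0.08 (adjusted p 0.092, 4 of 6) and STR against PFC at -0.14 ± 0.07 (adjusted p 0.0866, 4 of 6), were not called under DESeq2 or with its size factors (adjusted p 0.13 and 0.133 for STR against PFC, 0.207 and 0.205 for SN against STR) nor without the mouse with conflicting labels (adjusted p 0.105 and 0.102). STR against PFC was not called without a filter on low counts either (adjusted p 0.151), and it was -0.03 without the low-numbered mice.

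Fkbp5 (Entrez 14229, chr17:28398753-28486149, minus strand), the co-chaperone that holds the receptor back, was highest in STR and lowest in SN. AAV-Cre WT mice had 31.4 to 43.5 cpm in PFC (38.1), 52.6 to 57.6 in STR (53.7) and 18.1 to 34.4 in SN (23.9), and Nestin-Cre WT mice 30 to 48.5 (35.2), 36.8 to 62.4 (53.2) and 15.6 to 44.9 (19.3). In AAV-Cre mice STR overlapped neither PFC nor SN, whereas in Nestin-Cre mice the regions overlapped, with 1 SN library at 44.9 cpm. STR rose over PFC by 0.48 ± 0.10 (adjusted p 0.000151, 7 of 7) in AAV-Cre and by 0.46 ± 0.19 (adjusted p 0.0417, 6 of 6) in Nestin-Cre mice. SN fell by 1.12 ± 0.10 against STR in AAV-Cre mice (adjusted p 5.79e-10, 7 of 7) and fell by 1.11 ± 0.21 in Nestin-Cre mice (adjusted p 6.94e-05, 6 of 6). Against PFC it fell by 0.63 ± 0.10 (adjusted p 4.72e-06, 7 of 7) and fell by 0.65 ± 0.20 (adjusted p 0.00549, 5 of 6).

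Tsc22d3 (Entrez 14605, chrX:140539529-140600522, minus strand) codes for GILZ, a leucine zipper protein through which glucocorticoids restrain inflammation. It read 51.9 to 77.4 cpm in AAV-Cre PFC (60.8), 43.8 to 75.6 in STR (67.2) and 93.3 to 135 in SN (109), and in Nestin-Cre mice 49.2 to 97.2 (74.6), 34.4 to 93.9 (53.9) and 111 to 208 (143). Every WT SN library lay above every WT PFC and STR library of the same model. SN rose over STR by 0.88 ± 0.12 in AAV-Cre mice (adjusted p 9.39e-07, 7 of 7) and by 1.34 ± 0.22 in Nestin-Cre mice (adjusted p 1.39e-05, 6 of 6). Over PFC the rises were 0.83 ± 0.12 (adjusted p 2.17e-06, 7 of 7) and 1.04 ± 0.20 (adjusted p 8.76e-05, 6 of 6).

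Zbtb16 (Entrez 235320, chr9:48654297-48835945, minus strand), which codes for the zinc finger repressor PLZF, was a cortical gene here. AAV-Cre WT mice had 26.8 to 56.9 cpm in PFC (33.8), 5.18 to 23 in STR (10.2) and 10.5 to 33.3 in SN (15.3), and Nestin-Cre WT mice 30.6 to 48.2 (41.9), 1.86 to 6.79 (4.62) and 4.94 to 20.9 (8.46). PFC and STR were fully apart in both models, and PFC and SN in Nestin-Cre mice. STR fell by 3.15 ± 0.28 against PFC in Nestin-Cre mice (adjusted p 3.66e-09, 6 of 6) and fell by 1.72 ± 0.31 in AAV-Cre mice (adjusted p 4.64e-05, 7 of 7). SN fell by 1.94 ± 0.26 against PFC (adjusted p 8.32e-07, 6 of 6) and fell by 0.98 ± 0.30 (adjusted p 0.00552, 7 of 7). SN rose over STR by 1.21 ± 0.29 (adjusted p 0.000808, 6 of 6) and by 0.74 ± 0.31 (adjusted p 0.0357, 7 of 7), the latter not called without the libraries high in choroid plexus markers (0.51, adjusted p 0.163).

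Hif3a (Entrez 53417, chr7:17030993-17062427, minus strand), whose product restrains hypoxia-inducible factors, had its highest medians in PFC. AAV-Cre WT mice had 10.1 to 16.3 cpm in PFC (14.2), 9.85 to 14.9 in STR (10.2) and 9.18 to 16.3 in SN (13.1), and Nestin-Cre WT mice 2.36 to 15.1 (8.66), 1.92 to 7.11 (4.34) and 1.3 to 11.5 (5.35). The regions overlapped in both models, and the Nestin-Cre values were spread more widely. STR fell by 0.27 ± 0.13 against PFC in AAV-Cre mice (adjusted p 0.0829, 5 of 7), a call that ended without the libraries high in choroid plexus markers (adjusted p 0.273).

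Sgk1 (Entrez 20393, chr10:21882184-21999902, plus strand), a kinase that acts on ion channels and transporters, was highest in STR. It read 48.3 to 85.6 cpm in AAV-Cre PFC (67.4), 111 to 146 in STR (124) and 37.5 to 95.5 in SN (65.2), and in Nestin-Cre mice 54.2 to 116 (64.5), 94.6 to 174 (115) and 33 to 136 (57.4). STR stood clear of both other regions in AAV-Cre WT mice and overlapped them in Nestin-Cre WT mice. STR rose over PFC by 0.90 ± 0.18 (adjusted p 0.00018, 7 of 7) and by 0.71 ± 0.25 (adjusted p 0.0191, 6 of 6) in the AAV-Cre and Nestin-Cre model. SN fell by 1.00 ± 0.18 against STR (adjusted p 3.48e-05, 7 of 7) and fell by 0.77 ± 0.27 (adjusted p 0.0158, 5 of 6).

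Cdkn1a (Entrez 12575, chr17:29090979-29100722, plus strand), the p21 inhibitor of cyclin-dependent kinases, was highest in PFC. AAV-Cre WT mice had 12.1 to 30.4 cpm in PFC (21.4), 11.4 to 16.3 in STR (14.6) and 7.81 to 14.8 in SN (10.7), and Nestin-Cre WT mice 16.2 to 39.9 (23.9), 8.28 to 18.5 (11.7) and 7.4 to 14.5 (8.65). PFC and SN were apart in Nestin-Cre mice, and the other pairs overlapped. STR fell by 0.63 ± 0.15 against PFC (adjusted p 0.000811, 7 of 7) and fell by 0.98 ± 0.21 (adjusted p 0.000436, 6 of 6) in AAV-Cre and Nestin-Cre mice, and SN fell by 0.97 ± 0.15 (adjusted p 4.3e-06, 7 of 7) and fell by 1.36 ± 0.22 (adjusted p 9.17e-06, 6 of 6). SN fell by 0.34 ± 0.15 against STR in AAV-Cre mice alone (adjusted p 0.0456, 6 of 7), and the difference between models was not tested.

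Pdk4 (Entrez 27273, chr6:5483351-5496278, minus strand), the kinase that shuts pyruvate dehydrogenase in fasting, was level over regions in AAV-Cre mice, with 12.3 to 19.1 cpm in PFC (15.4), 12.4 to 19.5 in STR (15.5) and 11 to 17.2 in SN (14.7). Nestin-Cre WT mice had 11.5 to 16.3 cpm (12.3), 10.6 to 15.2 (12.9) and 12.6 to 22.5 (18.7), with SN at the upper end and overlapping the others. SN rose over STR by 0.51 ± 0.13 (adjusted p 0.00129, 5 of 6) and over PFC by 0.48 ± 0.12 (adjusted p 0.00106, 6 of 6). Without the low-numbered mice, with 3 WT mice left per region, these were 0.34 and 0.37 and were not called.

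Plin4 (Entrez 57435, chr17:56100591-56109802, minus strand), a coat protein of lipid droplets whose exons overlap those of Hdgfl2 on the other strand, ran from 5.74 to 11.7 cpm in AAV-Cre PFC (8.54), 10.6 to 20.1 in STR (14.9) and 13.5 to 19.9 in SN (14.4). Nestin-Cre WT mice had 1.06 to 10.8 cpm (4.47), 0.748 to 11.7 (2.78) and 2.72 to 17.9 (8.37), overlapping throughout. In AAV-Cre WT mice PFC lay below every SN library and overlapped STR. STR rose over PFC by 0.89 ± 0.17 (adjusted p 9.9e-05, 7 of 7) and SN by 1.00 ± 0.17 (adjusted p 1.76e-05, 7 of 7) in these mice.

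Sult1a1 (Entrez 20887, chr7:126672870-126676357, minus strand), a sulfotransferase of phenols and catechols, had 8.21 to 13.1 cpm in AAV-Cre PFC (10.4), 7.3 to 9.64 in STR (7.99) and 6.07 to 18.2 in SN (9.6). In Nestin-Cre WT mice it read 4.62 to 13.1 cpm (6.29), 3.89 to 10.6 (7.74) and 4.39 to 33.8 (13.3). All regions overlapped, and the widest group was Nestin-Cre SN. SN rose over STR by 1.17 ± 0.38 (adjusted p 0.00928, 5 of 6) and over PFC by 1.15 ± 0.35 (adjusted p 0.00574, 5 of 6) in Nestin-Cre mice, and without the low-numbered mice these were 0.40 and 0.30 and were not called. In AAV-Cre mice STR fell by 0.36 ± 0.17 against PFC (adjusted p 0.075, 7 of 7) and SN rose over STR by 0.31 ± 0.17 (adjusted p 0.0971, 6 of 7). Neither call held without the libraries high in choroid plexus markers (adjusted p 0.105 and 0.176), and the second ended under DESeq2, its size factors, no filter and the mouse block as well (adjusted p 0.113, 0.116, 0.146 and 0.161).

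Genes of other lists were counted in the same tests, beside the shares of all genes given above (65.6% to 78.8%), and no list was tested as a set. Of 22 other glucocorticoid-induced genes, 6 rose and 8 fell in STR against PFC of AAV-Cre mice (4 and 7 in Nestin-Cre mice), 7 and 6 in SN against STR (10 and 6) and 8 and 9 in SN against PFC (10 and 8). Examples are Per1, a clock gene with glucocorticoid sites, at -1.78 log2 in Nestin-Cre SN against STR, the transcription factor Klf9 at -1.43 and the thioredoxin inhibitor Txnip at 1.12. Of 14 genes of receptor machinery and steroid handling, 2 rose and 7 fell in STR against PFC of AAV-Cre mice (1 and 9 in Nestin-Cre mice), 9 and 4 in SN against STR (8 and 4), and 7 and 4 in SN against PFC (6 and 5). Hsd11b1, the enzyme that regenerates active hormone, was higher in SN than in STR by 1.60 log2 in AAV-Cre and 2.02 in Nestin-Cre mice, and lower in STR than in PFC at -0.87 and -0.80. Of 8 stress peptides and receptors in the AAV-Cre fit, 4 rose and 3 fell in STR against PFC, 3 and 4 in SN against STR and 3 and 2 in SN against PFC, and of 7 in the Nestin-Cre fit 3 and 3, 3 and 3 and 2 and 3. Crh, the hypothalamic releasing factor that is also made in cortical interneurons, was at -2.06 and -1.63 in SN against PFC in the AAV-Cre and Nestin-Cre model.

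Clock-output and immediate-early genes were counted likewise. Of 8 clock-output genes, 6 fell and 0 rose in SN against STR in each model, and 5 (AAV-Cre) and 4 (Nestin-Cre) rose and 0 fell in STR against PFC. SN against PFC had 2 up and 6 down in AAV-Cre and 2 up and 4 down in Nestin-Cre mice. Dbp stood at -1.63 and -1.78 log2 in SN against STR. Of 10 immediate-early genes, 9 (AAV-Cre) and 10 (Nestin-Cre) fell in SN against PFC, 7 fell and 1 rose in SN against STR in each model, and 1 rose in STR against PFC while 2 (AAV-Cre) and 4 (Nestin-Cre) fell. Egr1 stood at -3.05 and -3.81 log2 in SN against STR.

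The comparison of AAV-Cre with Nestin-Cre WT mice sets injected mice of 5 to 7 months beside younger, untreated mice that carry Nestin-Cre. Age, surgery, transgene and any batch cannot be told apart in it. Hif3a was higher in AAV-Cre mice in all 3 regions, and Zbtb16 in STR and SN. Of the 10 genes 3 rose and 0 fell in PFC (46.9% of all genes were called), 4 rose and 0 fell in STR (61.9%), and 2 rose and 3 fell in SN (62.4%), 12 of 30 tests in all.

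Hif3a in AAV-Cre and Nestin-Cre WT mice overlapped in PFC and SN and was fully apart in STR, where 9.85 to 14.9 cpm stood beside 1.92 to 7.11 cpm. It rose by 0.80 ± 0.28 in PFC (adjusted p 0.0302, 7 of 7), 1.38 ± 0.26 in STR (adjusted p 0.000526, 7 of 7) and 1.16 ± 0.37 in SN (adjusted p 0.0166, 7 of 7). Zbtb16 rose by 1.33 ± 0.35 in STR (adjusted p 0.00445, 7 of 7) and by 0.75 ± 0.35 in SN (adjusted p 0.0814, 7 of 7). Plin4 rose by 1.97 ± 0.49 in STR (adjusted p 0.00334, 7 of 7), and Sult1a1 by 0.52 ± 0.19 in PFC (adjusted p 0.0408, 7 of 7). Pdk4 rose by 0.27 ± 0.11 in PFC (adjusted p 0.0539, 7 of 7) and 0.32 ± 0.11 in STR (adjusted p 0.0177, 6 of 7) but fell by 0.41 ± 0.13 in SN (adjusted p 0.0141, 7 of 7). In SN, Nr3c1 fell by 0.23 ± 0.08 (adjusted p 0.0208, 6 of 7) and Tsc22d3 fell by 0.48 ± 0.13 (adjusted p 0.00587, 7 of 7). Without the mouse with conflicting labels the Pdk4 difference in PFC was 0.23 and was not called (adjusted p 0.11).

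Leaving out the low-numbered Nestin-Cre mice changed the differences in both directions. Because these mice were singled out for high values, upward shifts of AAV-Cre against Nestin-Cre mice follow from leaving them out, and the values are a description and no test. Hif3a rose by 2.01 in PFC, 2.19 in STR and 2.35 in SN, Plin4 by 2.29, 4.03 and 2.09, and Fkbp5 by 0.25, 0.26 and 0.52. Zbtb16 rose by 1.64 in STR and 1.44 in SN, Tsc22d3 by 0.34 in PFC and 0.58 in STR, Sgk1 by 0.32 in STR and Cdkn1a by 0.56 in STR. Cdkn1a fell by 0.52 in PFC and Nr3c1 fell by 0.23 in SN. The calls of Pdk4 in all 3 regions (0.25, 0.29 and -0.25), of Sult1a1 in PFC (0.47) and of Tsc22d3 in SN (-0.23) ended.

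Among 22 other glucocorticoid-induced genes, 8 rose and 2 fell in PFC and in STR, and 4 rose and 4 fell in SN. In PFC the log2 differences were 0.91 for Map3k6, 0.65 for Pla2g3, 0.56 for Mertk, 0.49 for Txnip, 0.39 for Glul, 0.38 for Mt1, 0.30 for Klf15, 0.27 for Mt2, and -0.29 each for Errfi1 and Klf9. STR had 0.83 for Txnip, 0.61 for Bcl6, 0.59 for Map3k6, 0.43 for Klf15, 0.29 for Pla2g3, 0.28 for Glul, 0.25 for Mertk, 0.19 for Nedd9, -0.26 for Mt1 and -0.20 for Mt2. SN had 0.63 for Per1, 0.45 for Mertk, 0.37 for Klf9, 0.33 for Bcl6, -0.23 for Gpd1, -0.35 for Errfi1, -0.87 for Mt1 and -0.88 for Mt2. Mertk, a receptor for engulfment of dying cells, was thus higher in AAV-Cre mice in the 3 regions.

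Genes of receptor machinery and steroid handling moved in both directions. The transporter Abcb1a, which pumps some steroids out of the brain, was higher by 0.56 in PFC, 1.23 in STR and 0.80 in SN on the log2 scale. Ptges3, the p23 co-chaperone, was lower at -0.40, -0.81 and -0.51, and Hsp90ab1 at -0.16, -0.24 and -0.23. PFC also had Hsp90aa1 at -0.48, Srd5a1 at -0.43, Stip1 at -0.21 and Fkbp4 at -0.14. STR had Ncoa2 at 0.39, Nr3c2 at 0.31, Ncoa1 at 0.29, Ncor1 at 0.25 and Stip1 at -0.17. SN had Ncoa1 at 0.55, Ncor1 at 0.52, Ncoa2 at 0.51, Hspa8 at -0.31, Hsp90aa1 at -0.46, and Hsd11b1 and Srd5a1 at -0.84 each. Of stress peptides and receptors, 1 of 5 rose in PFC (Crhr2 at 0.55), 2 rose and 1 fell of 7 in STR (Avp at 1.88, Oxt at 1.17, Crhbp at -0.84), and 2 of 7 rose in SN (Avp at 2.62, Crhbp at 0.91).

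Calls between the models among clock-output and immediate-early genes were as follows. Of 8 clock-output genes, Per3 was at 0.33 and Per2 at -0.28 in PFC, Nr1d1 at 0.40 and Nr1d2 at -0.35 in SN, and 0 were called in STR (edgeR). Egr1 was lower in PFC (-0.42) and STR (-0.46), Fosb higher in STR (0.68) and SN (1.42), and Npas4 (1.32) and Nr4a1 (0.75) higher in SN, of 10, 10 and 9 immediate-early genes tested.

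Markers of glia and vessels moved too, and their part in the differences of the 10 genes was not tested. In PFC, microglial markers rose (Aif1 0.68, C1qa 0.51, Siglech 0.43, Tmem119 0.43, Csf1r 0.36, Cx3cr1 0.32, P2ry12 0.24), while in SN several fell (P2ry12 -0.95, Aif1 -0.77, C1qa -0.49, Siglech -0.32), and in STR Aif1 was at 0.34, Siglech at 0.21 and P2ry12 at -0.47. Of 8 endothelial markers 6 rose in PFC (Pecam1 0.52, Flt1 0.51, Cdh5 0.46, Tek 0.45, Ly6c1 0.43, Esam 0.30), 7 in STR (Flt1 1.51, Cdh5 1.22, Pecam1 1.03, Cldn5 0.75, Tek 0.74, Slco1a4 0.39, Esam 0.31) and 5 in SN (Flt1 1.30, Cdh5 0.55, Tek 0.54, Cldn5 0.45, Esam 0.30). Of 8 astrocyte markers 6 rose in PFC (S100b 0.31, Aldoc 0.28, Slc1a3 0.24, Aldh1l1 0.22, Slc1a2 0.19, Gja1 0.16), 6 fell in SN (Aqp4 -1.16, Gfap -0.70, S100b -0.57, Gja1 -0.38, Aldoc -0.26, Aldh1l1 -0.21), and STR had Gfap at 1.29, S100b at 0.33, Slc1a2 at 0.17 and Aqp4 at -0.42. Oligodendrocyte markers fell in SN (Opalin -1.76, Cldn11 -1.22, Mog -1.21, Ugt8a -1.16, Ermn -0.97, Cnp -0.78, Mobp -0.62, Mbp -0.51, Mag -0.50) and in PFC (Ugt8a -0.56, Cldn11 -0.51, Opalin -0.41, Mog -0.38, Cnp -0.23), and STR had Ermn at 0.42, Mobp at 0.41, Mag at 0.31 and Opalin at -0.33.

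Of 8 mural and meningeal markers, 7 fell in SN (Tagln -1.96, Acta2 -1.74, Lum -1.52, Col1a2 -1.51, Col1a1 -1.31, Dcn -1.29, Myl9 -1.24), and Pdgfrb rose in PFC (0.25) and STR (0.69). Choroid plexus markers were higher in STR, where 2 of the 7 AAV-Cre WT libraries were among the 9 high in them, 8 of 8 (Slc4a5 4.27, Kcnj13 4.26, Ttr 4.18, Folr1 3.90, Kcne2 3.66, Kl 2.84, Otx2 2.39, Clic6 1.17). Clic6 also rose in PFC (1.45) and SN (1.05), where Folr1 (-1.73) and Kl (-1.38) fell. Alas2, the only blood marker that passed the filter, rose in PFC (0.59) and fell in SN (-0.72). Hba-a1 and Hbb-bs had no count in any library. Striatal markers rose in PFC (Rgs9 1.27, Adora2a 1.24, Pde10a 0.86, Ppp1r1b 0.80, Drd1 0.54), Adora2a at 2.38, Rgs9 at 1.21 and Pde10a at 1.09 in SN, and in STR Rgs9 at 0.33, Pde10a at 0.17, Drd1 at -0.32, Adora2a at -0.33 and Ppp1r1b at -0.42. Cortical markers in STR were lower for Neurod6 (-3.37), Slc17a7 (-2.03) and Tbr1 (-1.95), and Cux2 was higher in PFC (0.38), STR (0.83) and SN (1.01). In PFC Neurod6 was at -0.67, Tbr1 at -0.23 and Slc17a7 at -0.17. Nigral markers Pitx3 (0.69) and En1 (0.55) rose in SN, and in STR Ddc was at 0.45 and Th at -0.69.

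The genotype comparisons ask what the hypermorphic allele does to these genes. HET and HOM mice were each set against the same WT mice, which the comparisons therefore share. In the AAV-Cre model 0 of the 10 genes passed in HET PFC (0% of all genes), HOM PFC (0.0137%), HET STR (0%), HOM STR (0%), HET SN (0%) and HOM SN (0%). In the Nestin-Cre model 0 passed in HET PFC (0%), HOM PFC (0.250%), HET STR (0%), HOM STR (0%), HET SN (0%) and HOM SN (0%). These counts come from the quasi-likelihood test of edgeR. At an unadjusted p under 0.05 it had 10 of 120 tests, all in Nestin-Cre mice: 6 in HET PFC, 2 in HET STR and 1 each in HOM PFC and HET SN. Of all genes 9.72%, 17.3%, 10.1% and 8.99% were under that p in these 4 comparisons. DESeq2 called 1 and the likelihood ratio test of edgeR 14. Here and below, the shares of all genes called by DESeq2 or the likelihood ratio test are not given. Their counts therefore cannot be set against all genes.

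In Nestin-Cre PFC HET 0 genes passed, and the 6 with an unadjusted p under 0.05 are given for description. Hif3a read 2.36 to 15.1 cpm in WT (median 8.66), 3.51 to 5.98 in HET (4.45) and 15.5, 11.1, 8.7 and 4.32 in N_PFC_HOM_4393, N_PFC_HOM_4568, N_PFC_HOM_4569 and N_PFC_HOM_4580, the order kept below. Plin4 read 1.06 to 10.8 cpm in WT (4.47), 0.498 to 5.5 in HET (1.2) and 4.12, 2.31, 1.17 and 2.16 in HOM. Sgk1 had 54.2 to 116 cpm in WT (64.5), 54.5 to 59.1 in HET (57.8) and 84.7, 67.2, 74.7 and 51.6 in HOM. N_PFC_HOM_4393 was the highest of its group in each.

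Tsc22d3 had 49.2 to 97.2 cpm in WT (74.6), 48.2 to 62.2 in HET (52.6) and 85.8, 67.3, 61.8 and 47.3 in HOM. Fkbp5 had 30 to 48.5 cpm in WT (35.2), 24.2 to 34.7 in HET (29.8) and 37.2, 29, 32.5 and 24.4 in HOM. Pdk4 had 11.5 to 16.3 cpm in WT (12.3), 13.8 to 20.5 in HET (16.1) and 14.8, 10.8, 13.7 and 16.7 in HOM. All these groups overlapped. The HET differences from WT were -0.36 ± 0.11 for Fkbp5 (adjusted p 0.282, lower in 6 of 6), -0.82 ± 0.34 for Hif3a (adjusted p 0.424, 6 of 6), -1.42 ± 0.57 for Plin4 (adjusted p 0.413, 5 of 6), -0.35 ± 0.16 for Sgk1 (adjusted p 0.471, 6 of 6), -0.40 ± 0.16 for Tsc22d3 (adjusted p 0.4, 6 of 6) and 0.33 ± 0.11 for Pdk4 (adjusted p 0.313, 6 of 6). Of all 14386 genes, 1398 (9.72%) had an unadjusted p under 0.05 there. Among the 14 calls of the likelihood ratio test were Hif3a, Sgk1, Fkbp5, Plin4 and Tsc22d3 in this comparison. The 9.72% is no share of that test, for which none is given.

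The low-numbered mice were singled out after high values of these genes had been seen in them, so that lower WT levels without them were to be expected and are no test of the HET differences. Without those mice Hif3a was at 0.42, Sgk1 at 0.06, Tsc22d3 at 0.12, Plin4 at 0.15 and Fkbp5 at -0.15 in HET, and Pdk4 stayed at 0.32. The median of the 10 genes moved from -0.31 to 0.02, and 0 of them had an unadjusted p under 0.05 (edgeR). In Nestin-Cre SN HET all 10 genes were lower than WT, with a median of -0.21 and Tsc22d3 at -0.34 ± 0.15 (adjusted p 0.518), and without the low-numbered mice 7 were higher and 3 lower, with a median of 0.38. The share of all genes that were lower there is not given. The directions are not independent either, since the 9 others all had a positive r with Fkbp5 over the mice of this region.

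The remaining Nestin-Cre PFC genes in the HOM mice were, in the same order, Cdkn1a with 16.1, 19.2, 19.7 and 32 cpm, Nr3c1 with 129, 102, 121 and 126, Sult1a1 with 7.3, 6.98, 5.63 and 5.33, and Zbtb16 with 30.9, 32.9, 33.8 and 43.1. Each overlapped the WT range. Fkbp5 in these HOM mice differed from WT by -0.29 ± 0.13 (adjusted p 0.45). Hif3a was at 0.29 ± 0.37.

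Pdk4 in Nestin-Cre STR was the genotype difference with the smallest adjusted p among the 10 genes. It read 10.6 to 15.2 cpm in WT (12.9), 16.4 to 22.1 in HET (18.1) and 11.7 to 18.5 in HOM (14.4). Every HET library lay above every WT library, and HOM overlapped both. The HET difference was 0.56 ± 0.11 (adjusted p 0.139, higher in 7 of 7), and it passed under DESeq2 (0.56, adjusted p 0.00505) and in the likelihood ratio test (adjusted p 0.0208). It was 0.53 without the low-numbered mice (adjusted p 0.824, 3 WT mice). Fkbp5 there had 36.8 to 62.4 cpm in WT (53.2), 30.8 to 49.7 in HET (44.1) and 44.1 to 52 in HOM (47.5), and these overlapped. Its HET difference was -0.34 ± 0.12 (adjusted p 0.204, lower in 7 of 7), or -0.15 without the low-numbered mice.

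In the AAV-Cre model the genotypes overlapped for all 10 genes in STR and SN. Fkbp5 in AAV-Cre STR had 52.6 to 57.6 cpm in WT (53.7), 51.5 to 68.5 in HET (56.3) and 49.4 to 60.1 in HOM (55.2). Sgk1 in AAV-Cre SN had 37.5 to 95.5 cpm in WT (65.2), 44.1 to 241 in HET (60.7) and 36.5 to 68.1 in HOM (46.1). Plin4 in AAV-Cre SN had 13.5 to 19.9 cpm in WT (14.4), 10.5 to 58.1 in HET (15.2) and 3.57 to 25.8 in HOM (13.3). The HET maxima of Sgk1 and Plin4 are those of A_SN_HET_3676. The HET differences in SN, 0.50 ± 0.32 for Sgk1 (adjusted p 0.946) and 0.40 ± 0.36 for Plin4 (adjusted p 0.959), were -0.01 and -0.10 without its library. The likelihood ratio test called both with it, and Sgk1 at -0.36 in SN HOM, Sgk1 at -0.25 and Plin4 at -0.53 in STR HOM. Its other calls were Plin4 at -1.10 in Nestin-Cre PFC HOM, and Fkbp5, Pdk4 and Tsc22d3 in Nestin-Cre STR HET. Without the shares of all genes called by that test, these calls say nothing particular about the 10 genes.

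**Figure D2:**
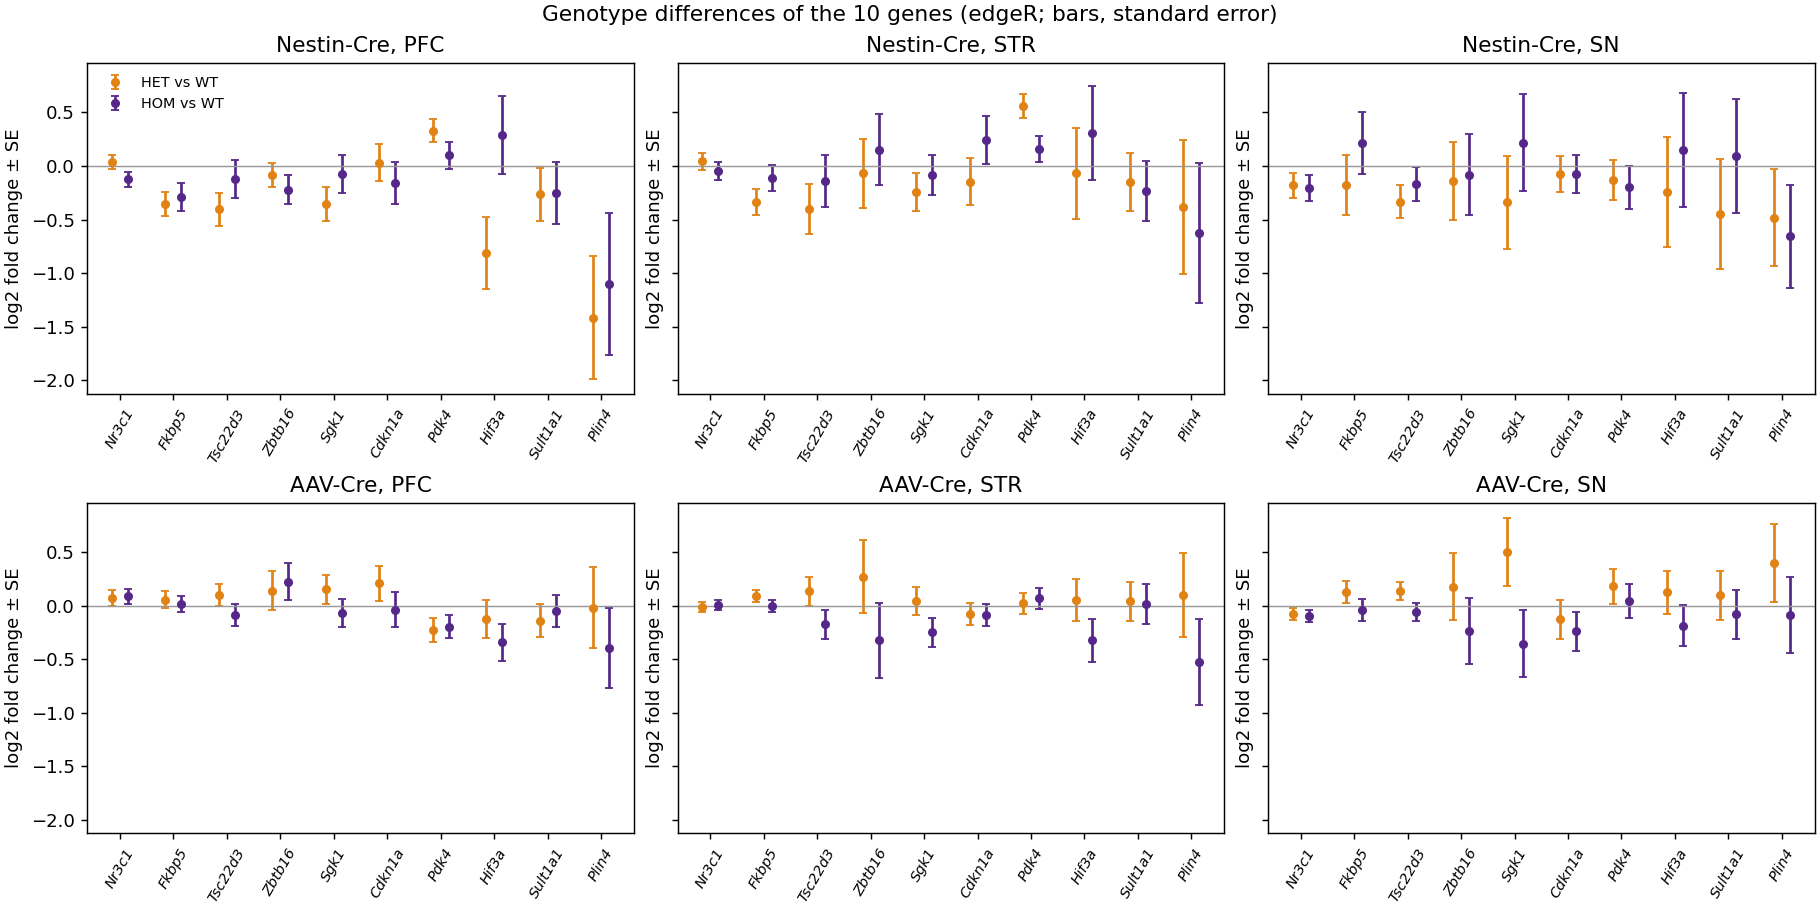
Log2 fold change against WT (y axis, bars ± standard error, edgeR) of the 10 genes in HET and HOM mice, by model and region. No point passed an adjusted p of 0.1, and the point farthest from 0 is Plin4 in Nestin-Cre PFC HET at -1.42.

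Whether a genotype effect differed between the models was tested by the interaction term. Of the 10 genes 0 passed for HET in PFC (0.678% of all genes did), HOM in PFC (3.54%), HET in SN (0%), HOM in SN (0%), HET in STR (0.00673%) and HOM in STR (0.0202%). At an unadjusted p under 0.05 edgeR had 9 of 60, where of all genes 14.8%, 16.6%, 14%, 3.32%, 15.5% and 6.67% were under that p in the same order, and DESeq2 called 2, Pdk4 for HET in PFC at -0.55 (adjusted p 0.0605) and Fkbp5 for HET in STR at 0.43 (adjusted p 0.0772). In edgeR these were -0.56 ± 0.16 (adjusted p 0.122) and 0.42 ± 0.13 (adjusted p 0.203), and Pdk4 for HET in STR was -0.54 ± 0.15 (adjusted p 0.201). A positive value means that the mutant stood higher against its WT in the AAV-Cre model.

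Genes of the other lists passed the interaction in PFC, and 0 in STR or SN (edgeR). Klf9, a glucocorticoid-induced transcription factor, was at 0.42 ± 0.10 for HET (adjusted p 0.0843) and 0.42 ± 0.11 for HOM (adjusted p 0.0386). Hsp90aa1, an Hsp90 chaperone of the receptor, was at 0.40 ± 0.11 for HOM (adjusted p 0.0571). For HET, oligodendrocyte markers Cldn11 (0.60 ± 0.15), Ugt8a (0.52 ± 0.13) and Mag (0.50 ± 0.14) and astrocyte marker Gja1 (-0.50 ± 0.11) passed. For HOM, oligodendrocyte markers Ermn (0.60 ± 0.14), Ugt8a (0.53 ± 0.14) and Cnp (0.41 ± 0.13) and microglial Aif1 (-0.94 ± 0.22) did. No gene of any list passed a genotype comparison in edgeR.

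The genes differed widely in how much mice of 1 group varied. The standard deviation within groups on the log2 scale ran over the 6 sets of model and region from 0.74 to 1.26 for Plin4, 0.38 to 1.01 for Hif3a, 0.31 to 1.03 for Sult1a1, 0.27 to 0.84 for Sgk1 and 0.24 to 0.71 for Zbtb16. It was 0.16 to 0.45 for Tsc22d3, 0.20 to 0.42 for Cdkn1a, 0.10 to 0.51 for Fkbp5, 0.19 to 0.36 for Pdk4 and 0.08 to 0.21 for Nr3c1. The median gene had 0.14 to 0.25. Plin4 stood at the 96.8th to 99.7th percentile of all genes, Hif3a at the 88th to 98.7th and Nr3c1 at the 15.7th to 39.4th. Percentiles are not matched for level, and low counts vary more.

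For some of the genes, a mouse that was high in one region was high in another. The relation of each gene between 2 regions of the same mouse was taken on log2 cpm after removal of the genotype means, with p from 100000 permutations of mice within genotype, the smallest possible being 1e-05. In Nestin-Cre mice 4 of the 10 genes passed between PFC and STR (8.28% of all genes, 15 mice), 5 between STR and SN (7.44%, 17 mice) and 2 between PFC and SN (1.29%, 15 mice). In AAV-Cre mice 7 passed between PFC and STR (9.74%, 21 mice), 5 between STR and SN (8.01%, 21 mice) and 5 between PFC and SN (4.74%, 22 mice), so that 28 of 60 relations passed in all. The median r of the 10 genes in these 6 pairs was 0.638, 0.654, 0.636, 0.772, 0.594 and 0.539, beside 0.294, 0.278, 0.154, 0.224, 0.129 and 0.122 over all genes.

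The mouse of A_SN_HET_3676 shows the pattern. It had 21.7 cpm of Plin4 in PFC, 51.2 in STR and 58.1 in SN, 122, 210 and 241 cpm of Sgk1, 94.4, 95.7 and 142 of Tsc22d3, and 18.5, 18.2 and 20.6 of Hif3a. Each value was the highest of its group. The mouse of N_SN_HOM_4393 had 84.7, 163 and 160 cpm of Sgk1 and 85.8, 73.8 and 182 cpm of Tsc22d3 in PFC, STR and SN.

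Plin4 in Nestin-Cre mice gave a Pearson r of 0.893 for PFC and STR, 0.928 for STR and SN and 0.861 for PFC and SN. Plin4 had, in that order, a permutation p of 0.00024, 2e-05 and 0.00031, with an adjusted p of 0.0242, 0.00808 and 0.0576. Spearman rho was 0.846, 0.926 and 0.846 (permutation p 0.00064, 5e-05 and 0.00111), and r without the 2 farthest mice was 0.84, 0.92 and 0.823. Plin4 in AAV-Cre mice gave a Pearson r of 0.908 for PFC and STR, 0.946 for STR and SN and 0.9 for PFC and SN. Plin4 had, in that order, a permutation p of 3e-05, 1e-05 and 1e-05, with an adjusted p of 0.00251, 0.00138 and 0.00168. Spearman rho was 0.849, 0.953 and 0.876 (permutation p 5e-05, 1e-05 and 3e-05), and r without the 2 farthest mice was 0.856, 0.913 and 0.846. Ranked by the mean r over the 6 pairs, Plin4 (0.906) was number 36 of 13792 genes.

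Hif3a in Nestin-Cre mice gave a Pearson r of 0.828 for PFC and STR, 0.891 for STR and SN and 0.961 for PFC and SN. Hif3a had, in that order, a permutation p of 0.00059, 2e-05 and 7e-05, with an adjusted p of 0.0328, 0.00808 and 0.0329. Spearman rho was 0.893, 0.824 and 0.889 (permutation p 0.00012, 0.00032 and 0.00089), and r without the 2 farthest mice was 0.83, 0.816 and 0.912. Hif3a in AAV-Cre mice gave a Pearson r of 0.84 for PFC and STR, 0.886 for STR and SN and 0.791 for PFC and SN. Hif3a had, in that order, a permutation p of 7e-05, 1e-05 and 0.00029, with an adjusted p of 0.00409, 0.00138 and 0.0153. Spearman rho was 0.738, 0.805 and 0.708 (permutation p 0.00053, 2e-05 and 0.00086), and r without the 2 farthest mice was 0.769, 0.793 and 0.671. Its mean r of 0.866 was number 61.

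Sgk1 in Nestin-Cre mice gave a Pearson r of 0.772 for PFC and STR, 0.786 for STR and SN and 0.799 for PFC and SN. Sgk1 had, in that order, a permutation p of 0.00065, 0.0004 and 0.00179, with an adjusted p of 0.0343, 0.0363 and 0.119. Spearman rho was 0.686, 0.701 and 0.632 (permutation p 0.00886, 0.00258 and 0.0408), and r without the 2 farthest mice was 0.627, 0.62 and 0.747. Sgk1 in AAV-Cre mice gave a Pearson r of 0.758 for PFC and STR, 0.872 for STR and SN and 0.85 for PFC and SN. Sgk1 had, in that order, a permutation p of 0.0002, 5e-05 and 0.00016, with an adjusted p of 0.00803, 0.00336 and 0.00948. Spearman rho was 0.704, 0.844 and 0.835 (permutation p 0.00019, 1e-05 and 5e-05), and r without the 2 farthest mice was 0.654, 0.739 and 0.724. Its mean r of 0.806 was number 104.

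Tsc22d3 in Nestin-Cre mice gave a Pearson r of 0.913 for PFC and STR, 0.749 for STR and SN and 0.814 for PFC and SN. Tsc22d3 had, in that order, a permutation p of 0.0002, 0.00367 and 0.00353, with an adjusted p of 0.0218, 0.0799 and 0.161. Spearman rho was 0.875, 0.775 and 0.871 (permutation p 0.0007, 0.00072 and 0.00034), and r without the 2 farthest mice was 0.908, 0.811 and 0.857. Tsc22d3 in AAV-Cre mice gave a Pearson r of 0.786 for PFC and STR, 0.767 for STR and SN and 0.751 for PFC and SN. Tsc22d3 had, in that order, a permutation p of 0.00013, 0.00022 and 0.00036, with an adjusted p of 0.0063, 0.00901 and 0.0182. Spearman rho was 0.797, 0.756 and 0.739 (permutation p 0.00011, 0.00036 and 0.00034), and r without the 2 farthest mice was 0.708, 0.715 and 0.665. Its mean r of 0.797 was number 111.

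Zbtb16 in Nestin-Cre mice gave a Pearson r of 0.658 for PFC and STR, 0.558 for STR and SN and -0.197 for PFC and SN. Zbtb16 had, in that order, a permutation p of 0.0208, 0.0258 and 0.487, with an adjusted p of 0.154, 0.162 and 0.863. Spearman rho was 0.654, 0.38 and -0.418 (permutation p 0.0169, 0.148 and 0.158), and r without the 2 farthest mice was 0.717, 0.32 and -0.137. Zbtb16 in AAV-Cre mice gave a Pearson r of 0.8 for PFC and STR, 0.899 for STR and SN and 0.838 for PFC and SN. Zbtb16 had, in that order, a permutation p of 5e-05, 2e-05 and 1e-05, with an adjusted p of 0.00339, 0.00198 and 0.00168. Spearman rho was 0.816, 0.9 and 0.835 (permutation p 4e-05, 2e-05 and 2e-05), and r without the 2 farthest mice was 0.74, 0.899 and 0.785. All AAV-Cre pairs of Zbtb16 and 0 Nestin-Cre pairs passed, and the difference between the models was not tested. Its mean r of 0.593 was number 494.

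Sult1a1 in Nestin-Cre mice gave a Pearson r of 0.567 for PFC and STR, 0.844 for STR and SN and 0.619 for PFC and SN. Sult1a1 had, in that order, a permutation p of 0.049, 0.00016 and 0.0145, with an adjusted p of 0.235, 0.0228 and 0.287. Spearman rho was 0.675, 0.833 and 0.557 (permutation p 0.0129, 0.00033 and 0.0385), and r without the 2 farthest mice was 0.455, 0.787 and 0.492. Sult1a1 in AAV-Cre mice gave a Pearson r of 0.837 for PFC and STR, 0.137 for STR and SN and -0.101 for PFC and SN. Sult1a1 had, in that order, a permutation p of 1e-05, 0.584 and 0.666, with an adjusted p of 0.00137, 0.846 and 0.905. Spearman rho was 0.775, -0.00519 and -0.19 (permutation p 9e-05, 0.986 and 0.419), and r without the 2 farthest mice was 0.74, -0.269 and -0.321. Sult1a1 was thus related between 1 pair of regions in each model, and its mean r of 0.484 was number 902.

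Fkbp5 in Nestin-Cre mice gave a Pearson r of 0.619 for PFC and STR, 0.498 for STR and SN and 0.654 for PFC and SN. Fkbp5 had, in that order, a permutation p of 0.0221, 0.0445 and 0.0248, with an adjusted p of 0.159, 0.211 and 0.343. Spearman rho was 0.664, 0.569 and 0.525 (permutation p 0.0125, 0.0168 and 0.0672), and r without the 2 farthest mice was 0.613, 0.449 and 0.496. Fkbp5 in AAV-Cre mice gave a Pearson r of 0.228 for PFC and STR, 0.421 for STR and SN and 0.327 for PFC and SN. Fkbp5 had, in that order, a permutation p of 0.309, 0.0163 and 0.175, with an adjusted p of 0.606, 0.151 and 0.589. Spearman rho was 0.139, 0.491 and 0.304 (permutation p 0.549, 0.0236 and 0.176), and r without the 2 farthest mice was 0.0883, 0.372 and 0.357. None of the 6 relations of Fkbp5 passed, and 3 of its Nestin-Cre pairs and 1 AAV-Cre pair had an unadjusted permutation p under 0.05. Its mean r of 0.458 was number 1051.

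Pdk4 in AAV-Cre mice gave a Pearson r of 0.696 for PFC and STR, 0.385 for STR and SN and -0.061 for PFC and SN. Pdk4 had, in that order, a permutation p of 0.00152, 0.094 and 0.791, with an adjusted p of 0.0317, 0.399 and 0.945. Spearman rho was 0.736, 0.41 and -0.115 (permutation p 0.00044, 0.0753 and 0.62), and r without the 2 farthest mice was 0.654, 0.268 and 0.0868. Pdk4 in Nestin-Cre mice gave a Pearson r of 0.201 for PFC and STR, -0.378 for STR and SN and -0.0708 for PFC and SN. Pdk4 had, in that order, a permutation p of 0.55, 0.187 and 0.832, with an adjusted p of 0.775, 0.441 and 0.967. Spearman rho was -0.0286, -0.304 and 0 (permutation p 0.931, 0.261 and 1), and r without the 2 farthest mice was 0.11, -0.317 and 0.14. Pdk4 passed for AAV-Cre PFC and STR alone, and its mean r was 0.129 (number 8615).

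Nr3c1 in Nestin-Cre mice gave a Pearson r of 0.453 for PFC and STR, -0.186 for STR and SN and 0.0433 for PFC and SN. Nr3c1 had, in that order, a permutation p of 0.104, 0.493 and 0.885, with an adjusted p of 0.339, 0.72 and 0.98. Spearman rho was 0.454, -0.25 and 0.196 (permutation p 0.116, 0.361 and 0.518), and r without the 2 farthest mice was 0.538, -0.242 and 0.118. Nr3c1 in AAV-Cre mice gave a Pearson r of 0.418 for PFC and STR, 0.339 for STR and SN and 0.301 for PFC and SN. Nr3c1 had, in that order, a permutation p of 0.115, 0.175 and 0.234, with an adjusted p of 0.378, 0.532 and 0.653. Spearman rho was 0.342, 0.186 and 0.0988 (permutation p 0.171, 0.419 and 0.693), and r without the 2 farthest mice was 0.102, 0.212 and -0.0627. Cdkn1a in Nestin-Cre mice gave a Pearson r of -0.519 for PFC and STR, 0.177 for STR and SN and 0.216 for PFC and SN. Cdkn1a had, in that order, a permutation p of 0.0882, 0.566 and 0.518, with an adjusted p of 0.312, 0.769 and 0.879. Spearman rho was -0.457, 0.135 and 0.0571 (permutation p 0.136, 0.65 and 0.868), and r without the 2 farthest mice was -0.335, 0.433 and 0.000721. Cdkn1a in AAV-Cre mice gave a Pearson r of 0.039 for PFC and STR, 0.346 for STR and SN and 0.0756 for PFC and SN. Cdkn1a had, in that order, a permutation p of 0.862, 0.181 and 0.738, with an adjusted p of 0.944, 0.539 and 0.929. Spearman rho was -0.0714, 0.166 and 0.0457 (permutation p 0.764, 0.512 and 0.847), and r without the 2 farthest mice was -0.232, -0.0179 and 0.106. Neither gene passed in any pair, and their mean r of 0.228 and 0.0556 was number 5098 and 10981.

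**Figure D3:**
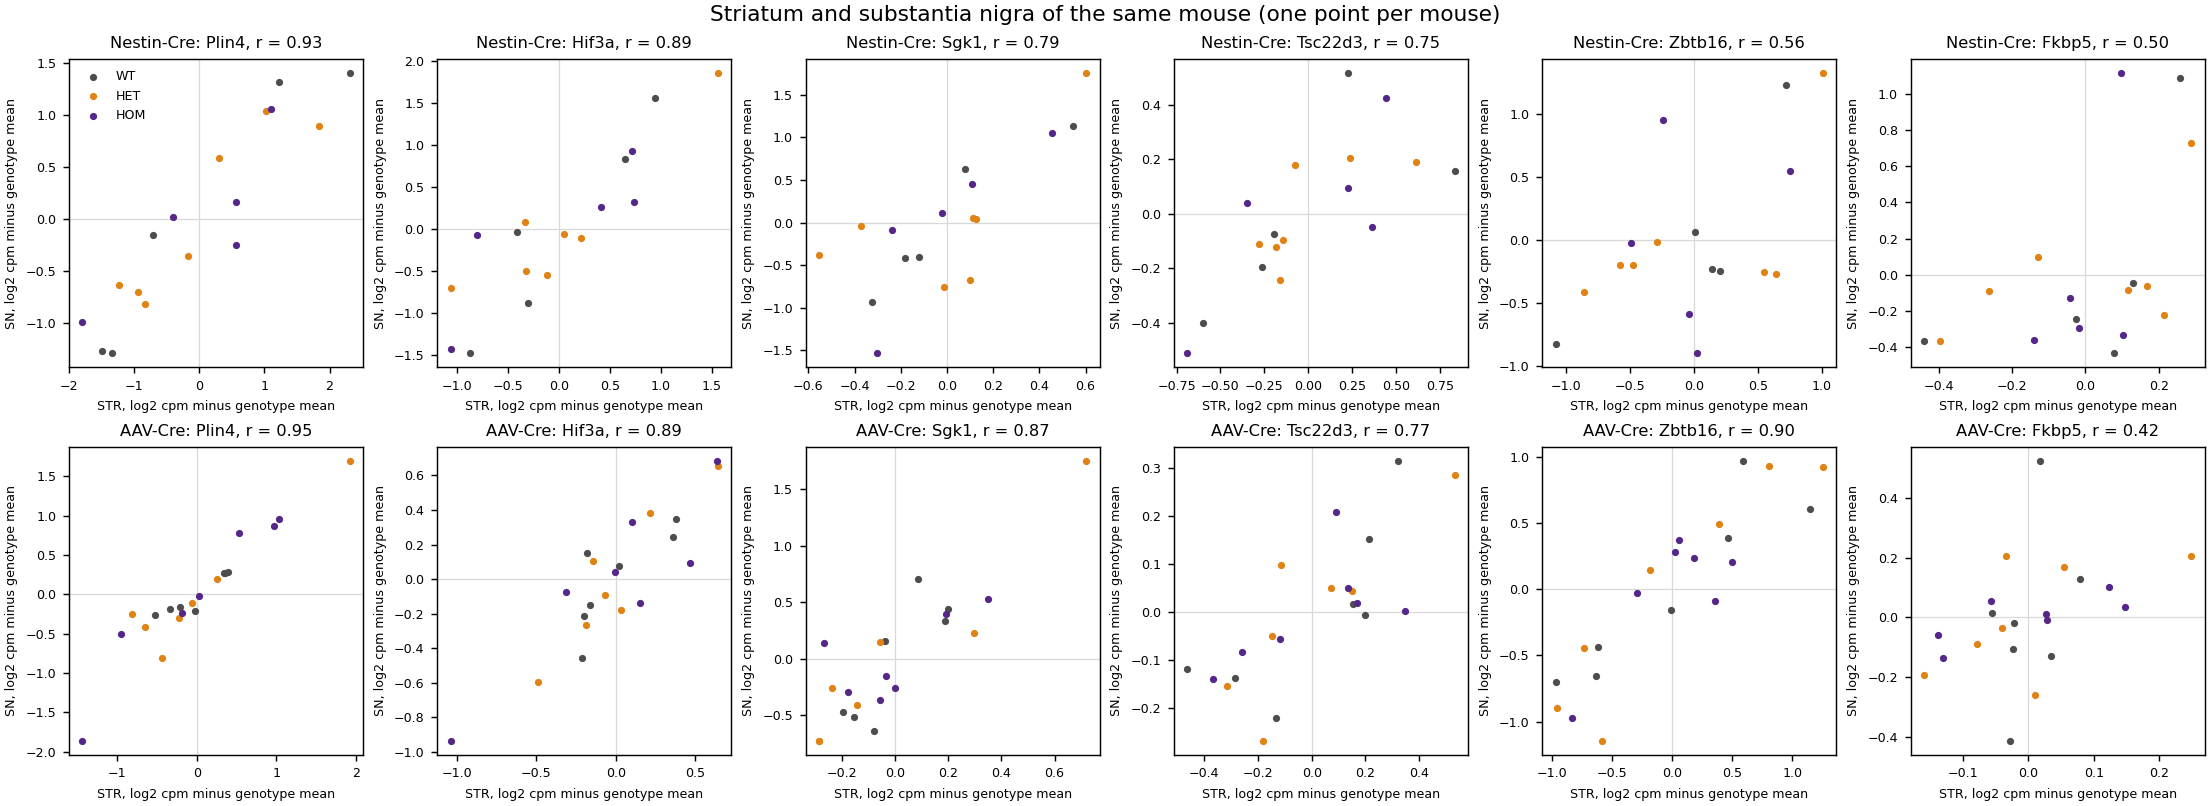
Log2 cpm minus the genotype mean in STR (x axis) and SN (y axis) of the same mouse for 6 genes in each model, 1 point per mouse. Plin4 has the tightest relation in both models, r = 0.928 in the Nestin-Cre model and 0.946 in the AAV-Cre model.

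Without the low-numbered mice, 11 Nestin-Cre mice remained between PFC and STR, 14 between STR and SN and 11 between PFC and SN. Then 0 of the 10 genes passed between PFC and STR, 3 between STR and SN (Hif3a 0.844, Sult1a1 0.881, Plin4 0.872) and 0 between PFC and SN, 20 over both models. Of all genes 0%, 1.16% and 0% passed then, so that the loss of calls was not confined to the 10 genes. The r between PFC and STR was then 0.791 for Plin4, 0.703 for Tsc22d3, 0.606 for Hif3a and 0.462 for Sgk1, and between PFC and SN 0.923 for Hif3a, 0.839 for Plin4 and 0.891 for Tsc22d3. Between STR and SN Sgk1 had 0.667 and Tsc22d3 0.746. Libraries high in choroid plexus markers, A_SN_HET_3676 among them, were also left out, which took a mouse only out of the pairs that used such a library. Then 18 relations passed. In AAV-Cre mice these were 0 between PFC and STR (3.5% of all genes, 14 mice), 2 between STR and SN (Zbtb16 and Plin4, 2.4%, 14 mice) and 5 between PFC and SN (4.23%, 21 mice). In Nestin-Cre mice 4 passed between PFC and STR (5.71%, 14 mice) and 5 between STR and SN (5.39%, 16 mice), with PFC and SN unchanged. The r between AAV-Cre PFC and STR was then 0.827 for Sult1a1, 0.807 for Plin4, 0.748 for Zbtb16, 0.735 for Sgk1, 0.644 for Tsc22d3, 0.626 for Hif3a and 0.530 for Pdk4. Between STR and SN it was 0.694 for Hif3a, 0.688 for Tsc22d3 and 0.685 for Sgk1. With the mouse of conflicting labels included 30 relations passed.

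Genes that follow the time of day and neuronal activity were counted likewise, and how many passed differed between pairs of regions. Of 8 clock-output genes 7, 6 and 1 passed in Nestin-Cre mice (PFC and STR, STR and SN, PFC and SN) and 8, 7 and 7 in AAV-Cre mice. Of immediate-early genes 7 of 10, 0 of 9 and 0 of 9 passed in Nestin-Cre mice and 10 of 10, 8 of 9 and 5 of 9 in AAV-Cre mice. With the mean of the clock-output genes of each region removed, the Nestin-Cre relations between STR and SN moved from 0.786 to 0.304 for Sgk1, from 0.749 to 0.375 for Tsc22d3 and from 0.891 to 0.565 for Hif3a, and the other 25 of the 28 that had passed moved by less than 1.5 times. Among relations that had not passed in Nestin-Cre mice, Fkbp5 moved from 0.498 to 0.0359 and Zbtb16 from 0.558 to 0.218 between STR and SN, Sgk1 from 0.799 to 0.419 between PFC and SN, and Cdkn1a from -0.519 to 0.205 between PFC and STR. With the mean of the immediate-early genes removed all 28 did. Of 22 other glucocorticoid-induced genes 6, 7 and 1 passed in Nestin-Cre mice and 6, 8 and 2 in AAV-Cre mice.

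Of 14 genes of receptor machinery and steroid handling 5, 2 and 0 passed in Nestin-Cre mice and 2, 3 and 2 in AAV-Cre mice, and 0 of the stress peptides and receptors passed in any pair. Oligodendrocyte markers passed for 1, 0 and 0 of 10 for the Nestin-Cre model and 2, 6 and 1 of 10 for the AAV-Cre model. The summed level of those markers was highest in N_PFC_WT_4394 (7170 cpm, median 4272) and N_STR_WT_4394 (12931, median 7059). That mouse also had the highest sum of the 10 glucocorticoid-responsive genes in both regions. N_PFC_WT_4394 was also the highest Nestin-Cre PFC library in striatal markers (835 cpm, median 404), choroid plexus markers (56.2, median 10.7) and clock-output genes (1164, median 882). The part of the markers in the sum was not tested. Endothelial markers passed for 0, 1 and 0 of 8 for the Nestin-Cre model and 3, 0 and 1 of 8 for the AAV-Cre model, and astrocyte markers for 2, 0 and 0 and 0, 2 and 0 of 8.

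**Figure D4:**
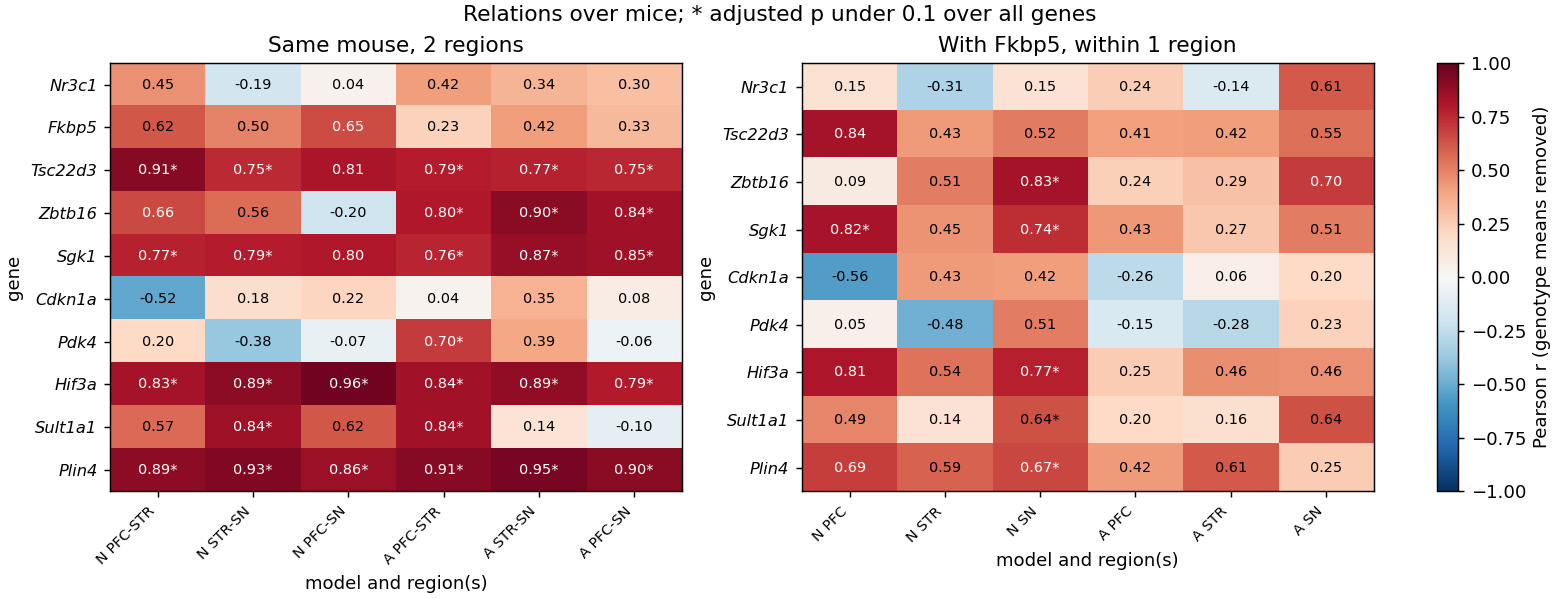
Pearson r (color and number) of each of the 10 genes between 2 regions of the same mouse and of 9 of them with Fkbp5 within a region, by model (N, Nestin-Cre; A, AAV-Cre), with * at an adjusted p under 0.1. Of the same-mouse relations 28 of 60 carry *, and of those with Fkbp5 6 of 54 do.

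Relations with Fkbp5 over the mice of 1 region show which genes move with it. The mouse with conflicting labels was kept in the Nestin-Cre sets under its label in each region, and these relations were not run without it. Of the 9 other genes 1 passed in Nestin-Cre PFC (0.0626% of all genes), 0 in STR (1.31%) and 5 in SN (6.67%), and in AAV-Cre mice 0 passed in PFC (0%), STR (0%) and SN (0%), 6 of 54 relations in all. At an unadjusted permutation p under 0.05 there were 6, 3 and 7 of 9 in Nestin-Cre PFC, STR and SN (of all genes 2163 of 14385, 2403 of 14493 and 2496 of 14872) and 0, 1 and 6 in AAV-Cre PFC, STR and SN (1600 of 14627, 935 of 14654 and 1500 of 14812), 23 in all. Of these 2 were negative, Cdkn1a in Nestin-Cre PFC (r = -0.557, permutation p 0.0321) and Pdk4 in Nestin-Cre STR (r = -0.48, permutation p 0.0366). In the 18 libraries of Nestin-Cre PFC, Sgk1 had r = 0.822 with Fkbp5 (permutation p 1e-05, adjusted p 0.0719), rho = 0.866 (permutation p 3e-05) and r = 0.743 without the 2 farthest libraries. Tsc22d3 and Hif3a stood close to it but did not pass. Tsc22d3 had r = 0.836 with Fkbp5 (permutation p 0.00014, adjusted p 0.126), rho = 0.814 (permutation p 0.00029) and r = 0.768 without the 2 farthest libraries. Hif3a had r = 0.809 with Fkbp5 (permutation p 0.00018, adjusted p 0.129), rho = 0.818 (permutation p 0.00018) and r = 0.771 without the 2 farthest libraries.

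In the 19 libraries of Nestin-Cre SN all 5 relations were positive. Zbtb16 had r = 0.828 with Fkbp5 (permutation p 1e-05, adjusted p 0.027), rho = 0.761 (permutation p 0.00067) and r = 0.795 without the 2 farthest libraries. Hif3a had r = 0.774 with Fkbp5 (permutation p 9e-05, adjusted p 0.0283), rho = 0.718 (permutation p 0.00253) and r = 0.751 without the 2 farthest libraries. Sgk1 had r = 0.74 with Fkbp5 (permutation p 0.00062, adjusted p 0.0396), rho = 0.598 (permutation p 0.011) and r = 0.642 without the 2 farthest libraries. Plin4 had r = 0.67 with Fkbp5 (permutation p 0.00496, adjusted p 0.0841), rho = 0.658 (permutation p 0.0067) and r = 0.573 without the 2 farthest libraries. Sult1a1 had r = 0.639 with Fkbp5 (permutation p 0.00607, adjusted p 0.0941), rho = 0.533 (permutation p 0.0248) and r = 0.416 without the 2 farthest libraries. The relation of Sult1a1 thus rests in part on 2 libraries. In the 22 libraries of AAV-Cre SN the relation nearest to a call was that of Zbtb16. Zbtb16 had r = 0.698 with Fkbp5 (permutation p 0.00095, adjusted p 0.28), rho = 0.764 (permutation p 0.00061) and r = 0.646 without the 2 farthest libraries.

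Without the low-numbered mice 0 of the relations with Fkbp5 passed in any Nestin-Cre region. Of all genes 0% passed in PFC and 0% in SN as well, and 4.85% in STR. In PFC, with 12 libraries left, fewer distinct permutations remain, which raises the smallest p that can be reached. The r was then 0.663 for Sgk1 in PFC (0.455 without the 2 farthest libraries), and in SN 0.677 for Sgk1 (0.206), 0.741 for Zbtb16 (0.38), 0.695 for Hif3a (0.237), 0.456 for Plin4 (-0.04) and 0.132 for Sult1a1 (-0.124).

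Other lists also held genes that moved with Fkbp5. In Nestin-Cre PFC 0 of them passed, but 6 of 6 striatal markers (median r 0.648) and 10 of 10 oligodendrocyte markers (median r 0.566) had a positive r. In Nestin-Cre STR the glucocorticoid-induced gene Klf9 (r = 0.756) and the clock-output genes Nr1d1 (0.753) and Dbp (0.700) passed (permutation p 0.00042, 0.0012 and 0.00053, adjusted p 0.0922, 0.0977 and 0.094). In Nestin-Cre SN, 6 of 22 other glucocorticoid-induced genes passed, Mertk (0.831), Nfkbia (0.770), Txnip (0.726), Ddit4 (0.690), Dusp1 (0.678) and Klf15 (0.650). There 5 of 8 mural and meningeal markers passed with a positive r (Col1a2 0.793, Col1a1 0.705, Myl9 0.691, Tagln 0.680, Acta2 0.661) and 3 of 10 oligodendrocyte markers with a negative one (Mbp -0.728, Mobp -0.718, Mag -0.702). Single genes of other lists passed as well, Kcnj13 (0.735) and Otx2 (-0.746) of choroid plexus, Cdh5 (0.784) of endothelium, Slc17a7 (0.754) of cortical neurons, Aldoc (-0.705) of astrocytes and Abcb1a (0.801) of receptor machinery and steroid handling. The permutation p of these 20 relations in SN ran from 4e-05 to 0.00593 and the adjusted p from 0.0279 to 0.093. The part of the markers in the relations of the 10 genes was not tested.

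By mean r over the 6 sets, among 13791 genes, the 10 genes outside the list most like Fkbp5 were Mertk (0.608), Adipor2 (0.577), Susd6 (0.571), Klf9 (0.549), Fam83d (0.542), Wipf3 (0.512), Klf13 (0.51), Gpt2 (0.493), Hs3st4 (0.478) and Adcy9 (0.478). Adipor2, an adiponectin receptor, had r from 0.437 to 0.753 over the sets and passed in 0 of them (adjusted permutation p at least 0.137). In the same ranking Hif3a was number 4 (0.550), Plin4 7 (0.540), Sgk1 8 (0.539), Tsc22d3 9 (0.528), Zbtb16 18 (0.443) and Sult1a1 56, whereas Nr3c1 was number 2670, Cdkn1a 5025 and Pdk4 7763.

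Since several of these genes moved together over mice, their promoters (250 bases before to 50 after the start, from RefSeq, build GRCm38.p6) were searched on both strands for letters of the receptor's element. Promoters were given for 8 of the 10 genes, and Nr3c1 and Zbtb16 are not in that table. Sgk1 has 6 promoters in the table, Tsc22d3 3, Cdkn1a 2 and the others 1 each, 16 in all, so that some genes had more chances of a match than a single promoter. The hexamer AGAACA was in 6233 of 32851 promoters (19%) and in 5 of the 16, those being 3 of Sgk1, 1 of Tsc22d3 and 1 of Sult1a1. The spaced core ACANNNTGT was in 2249 (6.85%) and in 2 of Sgk1, and the E-box CACGTG of clock factors was in 2349 (7.15%) and in 1 each of Sgk1 and Fkbp5. The full palindrome, 2 such hexamers on opposite strands with 3 bases of any kind between them, which holds the spaced core and a hexamer on each strand, was in 3 promoters (0.00913%), those of Sgk1, Acnat2 and Gm35041, the last 2 named after the result was seen.

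The promoters of 4 genes that were shared between regions of a mouse are shown 5′ to 3′, for Sgk1 the promoter with the palindrome and for Tsc22d3 the one with a match, with capitals at hexamers on either strand and at the full palindrome. They are Sgk1 at chr10:21993640-21993939 (plus strand), Tsc22d3 at chrX:140600473-140600772, Hif3a at chr7:17062378-17062677 and Plin4 at chr17:56109733-56110032 (minus strand). In Sgk1 the palindrome begins at -189 from the start, its spaced core at -186, and the first of 3 hexamers at -242, where it overlaps an E-box that begins at -246. Tsc22d3 has 1 hexamer at -185. No match lies in these windows of Hif3a and Plin4, which says only that the letters are not there.
Sgk1: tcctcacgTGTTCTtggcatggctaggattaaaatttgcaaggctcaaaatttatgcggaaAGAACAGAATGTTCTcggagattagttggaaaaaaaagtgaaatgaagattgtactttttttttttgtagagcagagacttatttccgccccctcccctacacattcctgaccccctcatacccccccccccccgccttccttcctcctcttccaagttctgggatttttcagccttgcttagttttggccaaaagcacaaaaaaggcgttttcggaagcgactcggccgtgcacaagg
Tsc22d3: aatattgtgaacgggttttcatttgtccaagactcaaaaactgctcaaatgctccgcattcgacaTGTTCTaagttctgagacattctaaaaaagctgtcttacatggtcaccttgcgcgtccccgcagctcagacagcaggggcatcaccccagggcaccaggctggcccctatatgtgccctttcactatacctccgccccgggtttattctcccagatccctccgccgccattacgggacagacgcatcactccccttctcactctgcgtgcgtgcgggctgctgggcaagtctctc
Hif3a: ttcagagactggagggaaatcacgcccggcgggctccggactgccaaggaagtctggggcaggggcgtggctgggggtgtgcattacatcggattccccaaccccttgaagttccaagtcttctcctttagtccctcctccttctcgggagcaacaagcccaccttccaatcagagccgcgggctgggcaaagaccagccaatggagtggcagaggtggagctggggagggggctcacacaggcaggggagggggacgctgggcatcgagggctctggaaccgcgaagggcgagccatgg
Plin4: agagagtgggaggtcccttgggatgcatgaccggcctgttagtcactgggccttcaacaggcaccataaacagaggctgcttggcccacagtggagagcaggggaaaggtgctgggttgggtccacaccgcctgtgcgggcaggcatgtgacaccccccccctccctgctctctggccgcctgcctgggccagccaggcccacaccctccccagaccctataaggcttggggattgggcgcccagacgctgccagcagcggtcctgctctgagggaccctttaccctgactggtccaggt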

How the data were processed

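The deposited table gives raw read counts per gene. Per the study's methods the authors made these counts with TruSeq stranded mRNA libraries, 75-bp single-end NextSeq reads, STAR 2.5.2b on mm10 and featureCounts 1.5.1. The 10 genes and the lists of pathway genes and cell type markers were chosen with earlier results of these data known. Tests used edgeR 4.0.16 in R 4.3.3 (TMM, trended dispersion, quasi-likelihood F test, two-sided) on genes that reached 1 cpm in 3 or more libraries, with Benjamini-Hochberg adjustment over all genes and a threshold of 0.1. DESeq2 1.42.0, the likelihood ratio test and other scalings were alternatives. Relations used log2 cpm (prior count 2) and two-sided permutations in numpy 2.4.6. Libraries of a mouse were paired by number and checked on all genes. The median same-mouse correlation of residuals was 0.168 to 0.241, and between other mice -0.0171 to -0.000827. Between STR and SN the lowest same-mouse value was -0.0739 (Nestin-Cre) and -0.154 (AAV-Cre), and 10 of 17 and 10 of 21 mice, respectively, matched best with themselves. Named are the 10 genes everywhere, list genes called in genotype, model or interaction tests, up to 4 examples per list between regions, and the 10 genes most like Fkbp5. Results of 5 genes of these lists are not reported here. The pipeline was tested on simulated data.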

Additional observations from a re-analysis of the deposited data

Results flagged for a closer look

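In 180 groups of libraries (each gene in each model, region and genotype), 17 held a library far above or below the rest by a gap test at its 95% limit, 15 high and 2 low. Chance alone gives about 1 in 20 groups, and the groups are not independent, since regions of a mouse are shared. The mouse of A_SN_HET_3676 gave 6 of the high values. It had 122 cpm of Sgk1 in PFC and 241 in SN, 94.4 of Tsc22d3 in PFC, and 21.7, 51.2 and 58.1 of Plin4 in PFC, STR and SN. The mouse of N_SN_HET_4628 had 36.1 cpm of Fkbp5, 166 of Sgk1, 23.7 of Zbtb16 and 14.7 of Hif3a in SN, and 10.9 of Hif3a in STR. N_SN_HOM_4393 had 58 cpm of Fkbp5 and 26.3 of Pdk4. A_PFC_HOM_3690 had 155 cpm of Nr3c1, and A_SN_WT_3578 had 18.2 of Sult1a1. Both low values were those of 1 mouse, 7.6 cpm of Zbtb16 in A_SN_HOM_3606 and 12.6 of Pdk4 in A_STR_HOM_3606.

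Genotype effects in PFC differed between the models for list genes outside the 10. As AAV-Cre minus Nestin-Cre log2 effects, HET gave Gja1 -0.50, Cldn11 0.60, Mag 0.50, Ugt8a 0.52 and Klf9 0.42 (adjusted p 0.0596, 0.0843, 0.0995, 0.0843 and 0.0843 in edgeR). HOM gave Aif1 -0.94, Cnp 0.41, Ermn 0.60, Ugt8a 0.53, Klf9 0.42 and Hsp90aa1 0.40 (adjusted p 0.0211, 0.0867, 0.0189, 0.0437, 0.0386 and 0.0571).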

How the results depend on the processing

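The 10 genes passed 39 region tests, 12 model tests, 0 genotype tests, 0 interaction tests, 28 same-mouse relations and 6 relations with Fkbp5. With DESeq2 these were 36, 12, 1 and 2 for the tests, with its size factors in edgeR 37, 12, 0 and 0, and without a filter 37, 12, 0 and 0. The likelihood ratio test gave 14 genotype calls, and the cause was not tested. With mouse as a block in a paired fit, 43 region tests passed, for which no share of all genes is given. Leaving out 1 library of Nestin-Cre PFC HOM at a time gave 0 to 0 genotype calls there, and a threshold of 0.05 gave 0. Without the mouse of conflicting labels, 38 region and 11 model tests passed, and with it 30 same-mouse relations. Among alternatives chosen after seeing the data, leaving out libraries high in choroid plexus markers gave 35, 12, 0, 0, 18 and 6, and leaving out the low-numbered Nestin-Cre mice 37, 17, 0, 1, 20 and 0. Both leave fewer mice, and the second leaves out mice singled out for high values, so that the calls it gained are no evidence. Scaling and prior count left all 28 and 6 relations called. No called value reversed under any setting run. Of 51 called fold changes, 48, 48 and 49 held with the size factors, DESeq2 and no filter.

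Groups of 4 to 8 mice and the wide spread of Plin4 and Hif3a limit the genotype tests, and a test that missed the threshold does not show equal levels. Levels under about 1 cpm, as for Gdnf outside STR, rest on few reads. In the Nestin-Cre model the 5 WT mice and 1 HOM mouse treated as low-numbered have lower numbers than every HET mouse. So does the WT mouse next in number, which was kept with the others. What the number stands for is not given. Time of day at death is not given either. Bulk tissue does not separate cell number from RNA per cell. Plin4 shares exon positions with Hdgfl2, and the strand setting of the counting is not given.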
